A study of Mus musculus with 12 samples.

Results

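The Cyp2b and Cyp2a genes examined here were Cyp2b9, Cyp2b10, Cyp2b13, Cyp2a4, Cyp2a5, Cyp2a12 and Cyp2a22, 7 of the 24071 genes in the expression table. They are neighbours in a tandem cluster on chromosome 7. They were selected on their family, their place in the cluster and levels already known to differ between these mice, so their RNA values are given as a description without a test. Each had 1 transcript among the 34933 in the table, so the value of the transcript was also the value of the gene. RNA-seq and formaldehyde-assisted isolation of regulatory elements (FAIRE-seq, which recovers accessible chromatin) were done on the same livers of male C57BL/6J mice, with 2 mice in each of 3 groups. Control mice ate standard chow for 28 weeks and had no surgery. Sham and VSG mice ate a diet with 60% of calories from fat from 8 weeks of age, for 14 weeks before and 14 weeks after surgery. VSG mice had vertical sleeve gastrectomy, the removal of about 80% of the stomach, and Sham mice had the mock operation. Both surgical groups received a liquid diet for 4 days of recovery after the operation. Diet and surgery differed together between Control and the other groups, so their parts cannot be told apart there, and VSG against Sham compared 2 operations on 1 diet.

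Cytochrome P450 enzymes of the CYP2 family are membrane-bound monooxygenases of the hepatocyte endoplasmic reticulum that oxidise drugs, steroids and fatty acids with electrons from P450 reductase. Cyp2b10 is the classic target of the constitutive androstane receptor (CAR) and responds to phenobarbital. Cyp2b9, Cyp2b13 and Cyp2a4 are known for higher expression in female than in male mouse liver, under the control of the pattern of growth hormone release. Cyp2a5 hydroxylates coumarin and nicotine, and Cyp2a4 is its near-identical partner that acts on testosterone. Cyp2a12 is also a steroid hydroxylase of liver, and Cyp2a22 is its closest relative in the cluster.

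The transcripts of the 7 genes fell into pairs by sequence. Between annotated transcripts, Cyp2a4 and Cyp2a5 were identical at 98.3% of 1717 aligned bases, Cyp2a12 and Cyp2a22 at 96.6% of 1648, and Cyp2b9 and Cyp2b13 at 91.8% of 1847. Cyp2b9 and Cyp2b10 were identical at 87.6% of 1860 aligned bases. Upstream of the gene starts, the likeness of the pairs differed. In the 250 bases before the start, Cyp2b9 and Cyp2b13 differed at 2 positions, and Cyp2a4 and Cyp2a5 differed at 4 of 249 compared positions. Cyp2a12 and Cyp2a22 differed at 27 of 239, and Cyp2b9 and Cyp2b10 at 123 of 249. The promoter stretches of the 2 pairs with the fewest differences are shown because near-equal promoters went with equal patterns in 1 pair and unequal levels in the other. They run from 240 to 51 bases before the RefSeq start of the first gene of each pair (GRCm38.p6, plus strand), with the bases that differ within the pair in capitals. The stretches lie at chr7:26306952-26307141 for Cyp2a4, chr7:26835098-26835287 for Cyp2a5, chr7:26173169-26173358 for Cyp2b9 and chr7:26061255-26061444 for Cyp2b13.
Cyp2a4: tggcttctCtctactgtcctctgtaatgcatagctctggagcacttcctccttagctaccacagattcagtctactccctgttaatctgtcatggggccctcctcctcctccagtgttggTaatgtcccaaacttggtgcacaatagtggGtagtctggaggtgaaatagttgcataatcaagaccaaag
Cyp2a5: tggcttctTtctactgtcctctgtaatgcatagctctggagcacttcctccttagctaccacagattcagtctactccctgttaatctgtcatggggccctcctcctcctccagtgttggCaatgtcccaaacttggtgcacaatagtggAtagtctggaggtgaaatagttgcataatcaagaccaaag
Cyp2b9: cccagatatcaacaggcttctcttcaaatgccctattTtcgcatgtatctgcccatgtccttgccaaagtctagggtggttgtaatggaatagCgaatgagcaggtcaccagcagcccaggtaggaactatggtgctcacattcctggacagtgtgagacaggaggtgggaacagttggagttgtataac
Cyp2b13: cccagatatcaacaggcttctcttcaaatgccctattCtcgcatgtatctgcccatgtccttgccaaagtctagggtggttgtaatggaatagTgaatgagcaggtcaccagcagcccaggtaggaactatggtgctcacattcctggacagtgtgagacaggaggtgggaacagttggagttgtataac

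Levels were in FPKM, fragments scaled to the length of the transcript and to the depth of the library, which allows genes to be set side by side. Among the Cyp2b genes, Cyp2b10 was the main member in Control liver and Cyp2b9 in Sham and VSG liver. Cyp2b10 was at 8.46 and 8.81 FPKM in the Control mice, at 0.0389 and 0.0090 FPKM in the Sham mice, and at 0.135 FPKM in VSG mouse 1, while VSG mouse 2 was listed at 0. The Control mice were thus above all 4 operated mice, and Sham and VSG overlapped. On the log2(FPKM + 1) scale the difference was −3.23 for Sham against Control, −3.18 for VSG against Control and 0.06 for VSG against Sham. That scale understates the change of a gene this low, and an estimate of depth placed the Sham values at about 1 read, at 1.30 and 0.53 read equivalents, and VSG mouse 1 at 10.4.

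Cyp2b9 had the opposite order. It was at 0.0562 and 0.0675 FPKM in Control mice, with 8.43 and 0.324 FPKM in Sham mouse 1 and mouse 2, and with 17.9 and 103 FPKM in VSG mouse 1 and mouse 2. Both VSG mice were above both Sham mice, and both Sham mice were above both Control mice, with no overlap between any 2 groups. The Control values were worth only 2.76 and 2.75 read equivalents. The log2(FPKM + 1) difference was 1.73 for Sham against Control, 3.65 for VSG against Sham and 5.39 for VSG against Control. The mice of 1 group differed widely, by 26.0-fold between the 2 Sham mice and 5.78-fold between the 2 VSG mice, and the difference of Sham from Control was 0.32 without Sham mouse 1 and 3.15 without Sham mouse 2. With 1 mouse left out, the difference was 2.24 to 5.07 for VSG against Sham and 4.15 to 6.62 for VSG against Control.

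Cyp2b13, which shares all but 2 of 250 promoter bases with Cyp2b9, did not share its listed levels. It was at 0.446 and 0.422 FPKM in Control, at 0.382 and 0.0270 FPKM in Sham, and was listed at 0 in both VSG mice. No value reached 1 FPKM, so Cyp2b13 was the 1 member that did not enter the fit across transcripts. The mice with the highest Cyp2b9 levels were those in which Cyp2b13 was listed at 0. A listed 0 can also be a failed estimate in this table: Nr1i3, the gene of CAR itself, which liver is known to express, was listed at 0 in all 6 mice, so no change can be read for it.

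The make-up of Cyp2b RNA differed accordingly. Cyp2b10 held 94.4% and 94.7% of the summed Cyp2b FPKM in the Control mice. Cyp2b9 held 95.2% and 90.0% of it in Sham liver, against 99.3% and 100.0% in VSG liver. The sum itself was 8.96 and 9.30 FPKM in Control, 8.85 and 0.360 FPKM in Sham, and 18.04 and 103 FPKM in VSG. Control mice and Sham mouse 1 therefore had a like total that was made of different genes.

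**Figure D1:**
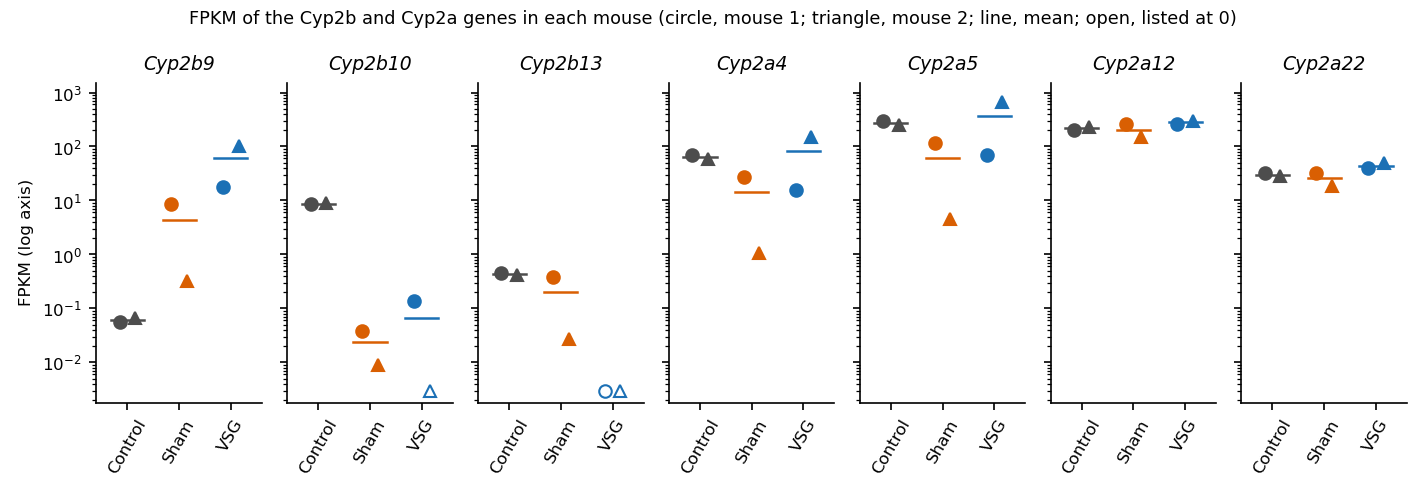
FPKM on a log axis of each gene in each mouse, by group, with circles for mouse 1, triangles for mouse 2, lines for the group mean and open symbols at the foot of the axis for values listed at 0. Cyp2b10 is high in Control alone, Cyp2b9 is ordered Control, Sham, VSG, Cyp2a4 and Cyp2a5 have the same shape with Sham mouse 2 lowest and VSG mouse 2 highest, and Cyp2a12 and Cyp2a22 stay within a narrow band.

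Cyp2a4 and Cyp2a5 were abundant in Control, lower in Sham and spread widely in VSG. Cyp2a5 was at 297 and 255 FPKM in Control, at 117 and 4.63 FPKM in Sham and at 69.6 and 676 FPKM in VSG. Cyp2a4 was at 69.7 and 58.1 FPKM in Control, at 27.6 and 1.066 FPKM in Sham and at 15.9 and 152 FPKM in VSG. For both genes the Sham mice lay below the Control mice, VSG mouse 1 lay between the Sham mice, and VSG mouse 2 was the highest of all 6. The log2(FPKM + 1) difference of Sham from Control was −3.42 for Cyp2a5 and −3.07 for Cyp2a4, and without Sham mouse 2 it was −1.23 and −1.17. The mean of VSG against Sham differed by 3.08 for Cyp2a5 and 2.73 for Cyp2a4, but the groups overlapped. Without Sham mouse 2 these values were 0.89 and 0.83, and without Sham mouse 1 they were 5.28 and 4.62. For VSG against Control, the sign depended on the mouse. The difference of −0.34 for Cyp2a5 became 1.29 without VSG mouse 1 and −1.97 without VSG mouse 2, and the −0.35 for Cyp2a4 became 1.25 and −1.94.

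The ratio of the 2 genes barely moved. Cyp2a4 was at 22.5% to 23.6% of Cyp2a5 in each of the 6 mice, although over the mice Cyp2a4 spanned a 143-fold range and Cyp2a5 a 146-fold range. The RNA reads were 50 bases long, and 36.5% of the 50-base stretches of the Cyp2a4 transcript were also in Cyp2a5, against 31.0% of the stretches of Cyp2a5. How much of the fixed ratio comes from dividing reads between near-identical transcripts was not tested. Every level of the pair is therefore best read as that of the summed pair, which was 367 and 313 FPKM in Control, 145 and 5.70 FPKM in Sham, and 85.5 and 828 FPKM in VSG.

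Cyp2a12 and Cyp2a22 varied least. Cyp2a12 was at 202 and 234 FPKM in Control, at 258 and 149.5 FPKM in Sham and at 266 and 299.7 FPKM in VSG. Cyp2a22 was at 31.6 and 28.8 FPKM in Control, at 32.9 and 18.4 FPKM in Sham and at 39.7 and 49.0 FPKM in VSG. In both genes Sham mouse 2 was the lowest mouse and VSG mouse 2 the highest, and both VSG mice were above all other mice, while Control and Sham overlapped. The log2(FPKM + 1) differences were −0.15, 0.52 and 0.38 for Cyp2a12 and −0.28, 0.81 and 0.54 for Cyp2a22 for Sham against Control, VSG against Sham and VSG against Control. Cyp2a22 was at 12.3% to 16.4% of Cyp2a12, with ranges over the mice of 2.66-fold and 2.005-fold, and these 2 transcripts shared 27.9% of the stretches of Cyp2a12 and 20.6% of those of Cyp2a22. Because Cyp2a12 held its level, the ratio of Cyp2a5 to Cyp2a12 ran from 0.0310 in Sham mouse 2 to 2.25 in VSG mouse 2, with 1.47 and 1.09 in Control. These are levels in whole liver, in which fewer cells of a type and less RNA per cell cannot be told apart.

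**Figure D2:**
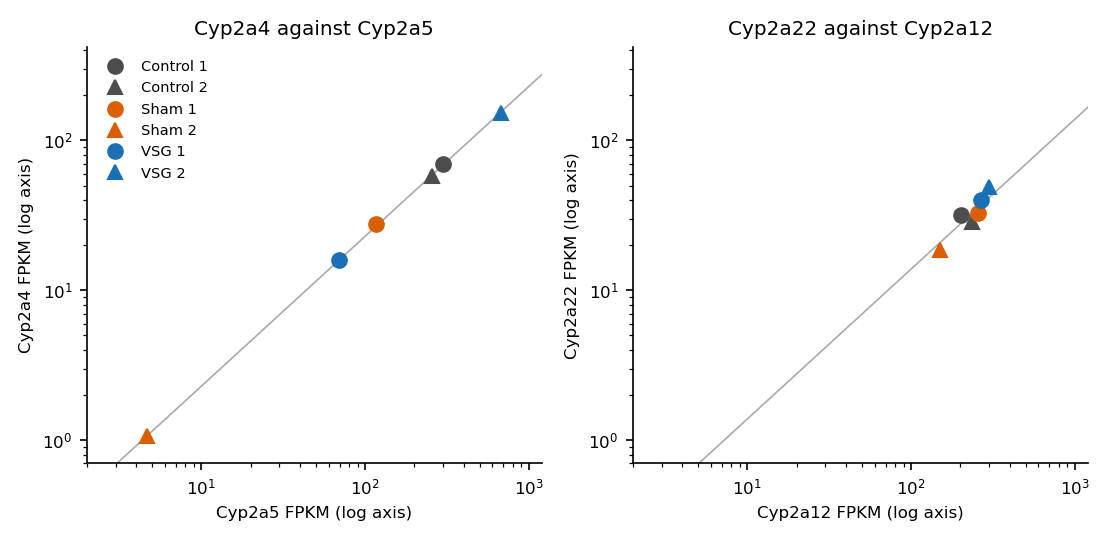
FPKM of Cyp2a4 against Cyp2a5 (left) and of Cyp2a22 against Cyp2a12 (right) in the 6 mice, both axes on a log scale, with a grey line at the median ratio. The Cyp2a4 points lie on the line over the whole range from Sham mouse 2 to VSG mouse 2, while Cyp2a12 and Cyp2a22 stay close to 1 place.

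Counted over the 7 genes, Sham and Control were at least 2-fold apart without overlap for 1 gene that was higher in Sham, Cyp2b9, and 3 that were lower, Cyp2b10, Cyp2a4 and Cyp2a5. The same criterion held for 5.5% of 9769 genes in the higher direction and 5.32% in the lower. VSG and Sham were so separated for 1 gene, Cyp2b9, which was higher in VSG, where the background was 3.95% higher and 2.26% lower. VSG and Control were so separated for Cyp2b9, higher in VSG, against a background of 5.62%, and for Cyp2b10, lower in VSG, against 3.33%. The median log2(FPKM + 1) difference of the 7 genes was −0.28, 0.81 and −0.34 for Sham against Control, VSG against Sham and VSG against Control, and that of all 9769 genes was 0.03, 0.08 and 0.13. Of the 7, 6 entered the limma fit across 11511 transcripts, whose result is read for the other gene lists and not for these genes. At an adjusted p under 0.1 that fit called 0.113% of transcripts higher and 0.235% lower in Sham than Control, 0.0521% higher and 0.0261% lower in VSG than Sham, and 0.0695% higher and 0.148% lower in VSG than Control. Since the genes were chosen with these values known, these counts carry no weight of evidence. Cyp2b10 passed the filter on low values only through its Control level and Cyp2b9 only through Sham and VSG.

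Sham mouse 2 stood apart in other liver genes as well. The 6 hepatocyte markers in the table summed to 28394 to 34780 FPKM in the other 5 mice and to 17693 FPKM in Sham mouse 2, and none was listed at 0 throughout. Albumin and transferrin were not analysed here. The 10 pericentral markers summed to 5188 to 8103 FPKM in the other mice and to 2783 FPKM in Sham mouse 2. A few abundant genes made up most of these sums. In Sham mouse 2, Apoa2 was at 7635, Apoa1 at 7161 and the pericentral Cyp2e1 at 2047 FPKM. Apoa2, Apoh, Ttr, Cyp2e1, Oat and Rgn were each lowest in that mouse. Apoa1 was lowest in VSG mouse 2, at 6334 FPKM. Glul was at 456 FPKM in Sham mouse 2, above the 338 and 345 FPKM of Control. The 8 periportal markers, of which Cyp2f2 is 1, summed to 5139 and 5027 FPKM in Control, 2016 and 1991 FPKM in Sham, and 1925 and 3255 FPKM in VSG. Kupffer cell markers, 11 genes, summed to 36.3 to 52.9 FPKM in Control, 128 to 136 FPKM in Sham and 105 to 342 FPKM in VSG. The 10 sinusoidal endothelial markers summed to 27.2 to 57.7, 9.36 to 13.3 and 38.2 to 41.8 FPKM in Control, Sham and VSG, and the 9 stellate cell markers to 76.1 to 90.9, 20.9 to 36.2 and 69.7 to 101 FPKM. Cholangiocyte markers, 6 genes led by Spp1, summed to 30.7 to 32.8, 62.9 to 186 and 30.9 to 145 FPKM, and 6 neutrophil markers to 5.33 to 14.0, 42.3 to 46.3 and 16.8 to 22.1 FPKM. None of these markers was at 0 in every mouse, and the part that cell make-up has in the Cyp2 levels was not tested.

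Of the 6 neighbours in the cluster, Cyp2f2 alone was abundant, and the other 5 (Cyp2b19, Cyp2b23, Cyp2g1, Cyp2t4 and Cyp2s1) stayed under 1 FPKM in every mouse, with a highest value of 0.604 FPKM for Cyp2g1. Cyp2f2, a naphthalene-oxidising enzyme of periportal hepatocytes, was at 730.4 and 657 FPKM in Control, at 237 and 73.4 FPKM in Sham and at 209 and 429.5 FPKM in VSG. Both operated groups lay below Control, and Sham and VSG overlapped. Its log2(FPKM + 1) difference from Control was −2.38 in Sham and −1.21 in VSG, of which the first had an unadjusted p under 0.05 in limma and neither an adjusted p under 0.1. In having the lowest value in Sham mouse 2 it resembled Cyp2a4 and Cyp2a5, but its highest values were those of Control.

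The other targets of CAR and of the pregnane X receptor (PXR), which bind overlapping elements, had their own order. Of 29 listed genes, 26 passed the filter on low values, and 0 of their 29 transcripts passed an adjusted p under 0.1 in any comparison. At an unadjusted p under 0.05, limma counted 2 transcripts higher and 9 lower in Sham than Control, where it counted 5.73% and 4.49% of all transcripts. For VSG against Sham it counted 7 higher and 1 lower, against 3.4% and 1.56%, and for VSG against Control 4 higher and 1 lower, against 5.7% and 2.62%. The 2 transcripts higher in Sham than Control were both of Cyp3a25, and both were also among the 7 and the 4. Summed per gene, Cyp3a25 differed by 5.56 for Sham against Control on the log2(FPKM + 1) scale. The paper lists Cyp3a25 among genes lower in Sham than Control, and the source of this conflict was not tested. The median log2(FPKM + 1) difference of the 26 genes was −1.29 for Sham against Control, 1.195 for VSG against Sham and −0.13 for VSG against Control. Cyp3a11, the main drug-inducible P450 of the 3a family, was at 1603 and 1293 FPKM in Control, 48.6 and 7.32 FPKM in Sham, and 100.1 and 828 FPKM in VSG. Its log2 difference of Sham from Control was −6.15 ± 1.29 (SE, limma adjusted p = 0.258). Cyp2c29 was at 339 and 483 FPKM in Control, 41.5 and 11.2 FPKM in Sham, and 123 and 424 FPKM in VSG, with a log2 difference of Sham from Control of −4.15 ± 0.85 (SE, limma adjusted p = 0.242). Both had Control above Sham in every mouse, as Cyp2a5 had, and both had VSG above Sham in every mouse, which Cyp2a5 did not. Gstm1, a glutathione transferase, was at 816 and 939 FPKM in Control, 467 and 59.2 FPKM in Sham, and 376 and 404 FPKM in VSG. Aldh1a1, which makes retinoic acid, was at 385 and 361 FPKM in Control, 1059 and 299 FPKM in Sham, and 972 and 1006 FPKM in VSG.

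PXR and the partners of the 2 receptors had a median log2(FPKM + 1) difference of −0.29, 0.52 and 0.19 in the same comparisons. Of 13 genes, 12 passed the filter, all but Nr1i3, the gene of CAR, and 0 of 15 transcripts passed an adjusted p under 0.1. At an unadjusted p under 0.05 limma counted 1, for Nr1i2, the gene of PXR, which was lower in VSG than Control. Of all transcripts, 2.62% were lower by that measure in that comparison. At least 2-fold apart without overlap were Rxra, higher in VSG than Sham, and Nr1i2, lower in VSG than Control. The shares of all genes were 3.95% and 3.33%. Rxra differed by 3.28 for VSG against Sham and by −3.11 for Sham against Control, where the groups overlapped. No Rxra transcript had an unadjusted p under 0.05 in limma, and whether failed estimates had a part in its level was not tested. The 4 most abundant were Cyb5a, Hsp90ab1, Alas1 and Por. Por, the reductase that feeds electrons to the P450 enzymes, was at 122 and 178 FPKM in Control, 80.9 and 150.02 FPKM in Sham and 101 and 288 FPKM in VSG, and Alas1, the first enzyme of haem synthesis, was at 140 and 189.5, 225 and 128, and 219 and 420.1 FPKM. Hsp90ab1, a chaperone that holds CAR in the cytoplasm, lay between 264 and 336 FPKM in the 6 mice. Cyb5a, a second electron donor, was at 1302 and 1119 FPKM in Control, 1864 and 626 FPKM in Sham and 1305 and 2160.2 FPKM in VSG, with Sham mouse 2 lowest and VSG mouse 2 highest.

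The other female-biased genes did not all have the pattern of Cyp2b9. Of 25 genes, 24 were in the table and 13 passed the filter, with a median log2(FPKM + 1) difference of −0.33, 0.30 and 0.17 for Sham against Control, VSG against Sham and VSG against Control. None of their 16 transcripts passed an adjusted p under 0.1, and at an unadjusted p under 0.05 limma counted 1 higher and 2 lower, 3 higher and 0 lower, and 2 higher and 1 lower, in the same order. Over all transcripts the shares were 5.73% and 4.49%, 3.4% and 1.56%, and 5.7% and 2.62%. The summed level of the list was 146 and 190 FPKM in Control, 97.7 and 148 FPKM in Sham and 148 and 138 FPKM in VSG. Cyp3a16 was at 37.8 and 35.5 FPKM in Control, 1.32 and 0.163 FPKM in Sham and 2.59 and 19.0 FPKM in VSG, with Control highest, unlike Cyp2b9. Cyp17a1, a steroid 17-hydroxylase, was at 87.6 FPKM in Sham mouse 2 and between 1.26 and 21.8 FPKM in the other mice. Cyp2c40 lay between 27.4 and 70.4 FPKM, and Acot3, an acyl-CoA thioesterase, was listed at 0 in Sham mouse 1 and reached 47.0 FPKM in VSG mouse 2.

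Male-biased genes were described in the same way. Of 19 listed genes, 14 were in the table and 12 passed the filter, and their median log2(FPKM + 1) difference was −1.05, 0.48 and −0.34. None of 14 transcripts passed an adjusted p under 0.1, and at an unadjusted p under 0.05 limma counted 0 higher and 3 lower in Sham than Control, 1 higher and 0 lower in VSG than Sham and 0 higher and 1 lower in VSG than Control. The shares over all transcripts were again 5.73% and 4.49%, 3.4% and 1.56%, and 5.7% and 2.62%. Gstp1 was at 1802 and 1871 FPKM in Control, 1453 and 537 FPKM in Sham and 1043 and 1143 FPKM in VSG. Cyp2d9, a testosterone hydroxylase, was at 1053 and 839 FPKM in Control, 1018 and 333 FPKM in Sham and 1044 and 803 FPKM in VSG, again with Sham mouse 2 lowest. Cyp7b1, an oxysterol hydroxylase, lay between 68.2 and 304 FPKM, and C8a, a complement component, was listed at 0 in Sham mouse 1 and lay between 136 and 281 FPKM elsewhere.

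Among 8 growth hormone signalling genes that passed the filter, Bcl6 was also 1 of the 3 genes most like Cyp2b9. Bcl6, a repressor that acts on genes bound by STAT5, was at 2.61 and 1.57 FPKM in Control, 15.3 and 4.60 FPKM in Sham, and 18.03 and 25.7 FPKM in VSG. The order of its groups was that of Cyp2b9, with no overlap. Its log2(FPKM + 1) difference of VSG from Control was 2.89 ± 0.58 (SE, limma adjusted p = 0.318), so it did not pass the test. Stat5b lay between 6.25 and 8.98 FPKM, Igf1 between 20.7 and 58.0 FPKM and Igfals between 35.3 and 76.1 FPKM. None of the 14 transcripts of the list passed an adjusted p under 0.1, and at an unadjusted p under 0.05 limma counted 1 higher and 0 lower, 2 higher and 1 lower, and 2 higher and 1 lower for Sham against Control, VSG against Sham and VSG against Control. Those counts stand beside 5.73% and 4.49%, 3.4% and 1.56%, and 5.7% and 2.62% of all transcripts.

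**Figure D3:**
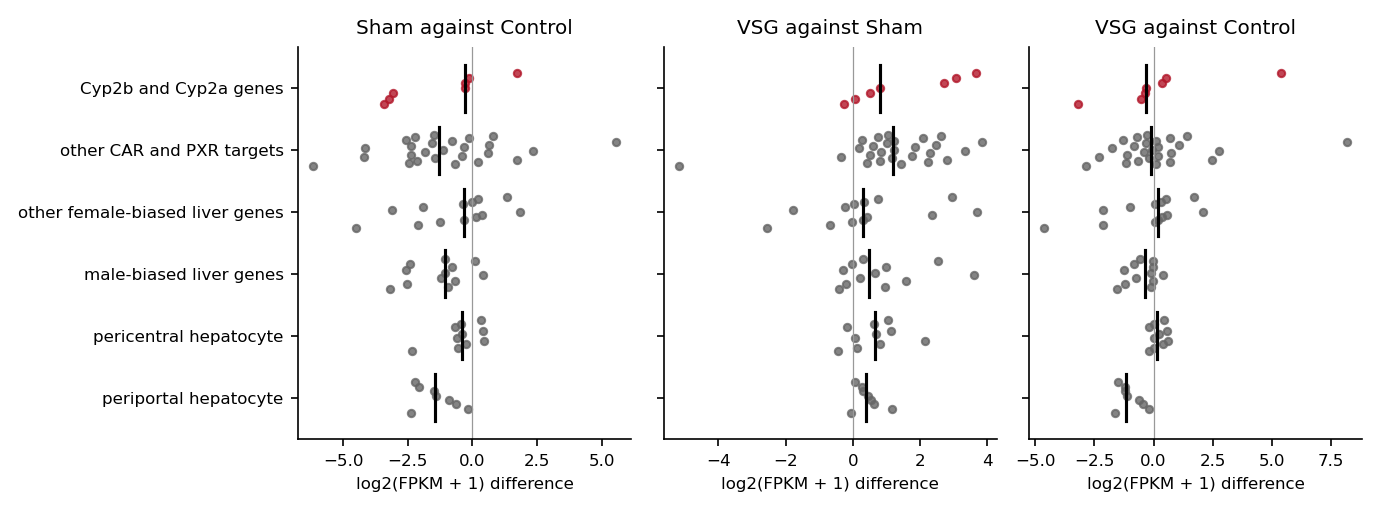
Difference of group means on the log2(FPKM + 1) scale for each comparison, with a point for each gene and a black bar at the median of each list. The 7 Cyp2b and Cyp2a genes (red) spread from −3.42 to 1.73 for Sham against Control, while other CAR and PXR targets have medians of −1.29, 1.195 and −0.13 in the 3 comparisons and the periportal markers of −1.45, 0.38 and −1.16.

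The genes with the most similar patterns were named by the smallest root mean square difference of centred log2(FPKM + 1) values over the 6 mice. For Cyp2b10 these were Scd3, Apoo-ps and Setd1a, with differences of 0.0946, 0.149 and 0.265 against a range of 3.29 for Cyp2b10 itself. Scd3, a stearoyl-CoA desaturase, was at 8.59 and 10.1 FPKM in Control and between 0.125 and 0.429 FPKM in the operated mice, whereas Apoo-ps and Setd1a were listed at 0 in all 4 operated mice. For Cyp2a5 the closest were Inmt, Ces1f and Ces1d (0.433, 0.639 and 0.746, range 6.91), and for Cyp2a4 they were Inmt, Ces1d and Gsta4 (0.526, 0.552 and 0.575, range 6.21). Inmt, an amine methyltransferase, was at 153 and 127 FPKM in Control, 65.1 and 1.36 FPKM in Sham, and 15.9 and 386 FPKM in VSG, the same order of mice as Cyp2a5. Ces1d, a carboxylesterase, was at 396 and 336 FPKM in Control, 126 and 20.7 FPKM in Sham and 47.8 and 857 FPKM in VSG. For Cyp2b9 the closest were Ppat, Bcl6 and Mir1929, but at 1.30, 1.35 and 1.36 against a range of 6.63, so no gene matched it closely. Cyp2b13 (Sh3bp5l, Mindy3 and Gne), Cyp2a12 (Cdk6, 1110020A21Rik and Ghitm) and Cyp2a22 (Pex3, 4931406C07Rik and Pmpcb) had differences of at most 0.0948, with ranges of their own of 0.53, 0.999 and 1.36.

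The FAIRE-seq peaks, called by the authors on each group from its 2 mice together, were described over the cluster from Cyp2s1 to Cyp2t4, chr7:26587494-27943687 in mm9 (NCBIM37), 1356 kb with 13 genes. The lists held 22 peaks there in Control, 35 in Sham and 32 in VSG, which were 0.0521%, 0.0662% and 0.0718% of all peaks of each list. Merged over the groups, 44 peaks were left. Of these, 15 (34.1%) were in all 3 lists, against 55.2% of 59249 merged peaks of the genome, and 11 (25%) were in Sham and VSG but not in Control, against 10.3%. The whole Sham list was the longest, with 52881 peaks against 42204 in Control and 44539 in VSG. Cluster peaks in Sham alone were 8 (18.2%, against 17.1% of the genome), in VSG alone 4 (9.09% against 3.82%) and in Control alone 3 (6.82% against 5.32%). Control with VSG held 2 (4.55% against 3.17%) and Control with Sham 1 (2.27% against 5.06%). There was 1 list per group, so no spread between mice was available and these shares were not tested. The cluster peaks were weak in their own lists, with a median signal at percentile 26.9 in Control, 41.6 in Sham and 31.4 in VSG. Between Sham and VSG, the study listed 99 sites of the genome as higher in Sham and 414 as higher in VSG. It listed 61 and 175 as reversible, with Sham higher and Sham lower. Of all these sites, 0 lay in the cluster, and the nearest was 551550 bases away. The listed sites were few beside the 59249 merged peaks, so this 0 does not set the 44 peaks of the cluster apart.

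**Figure D4:**
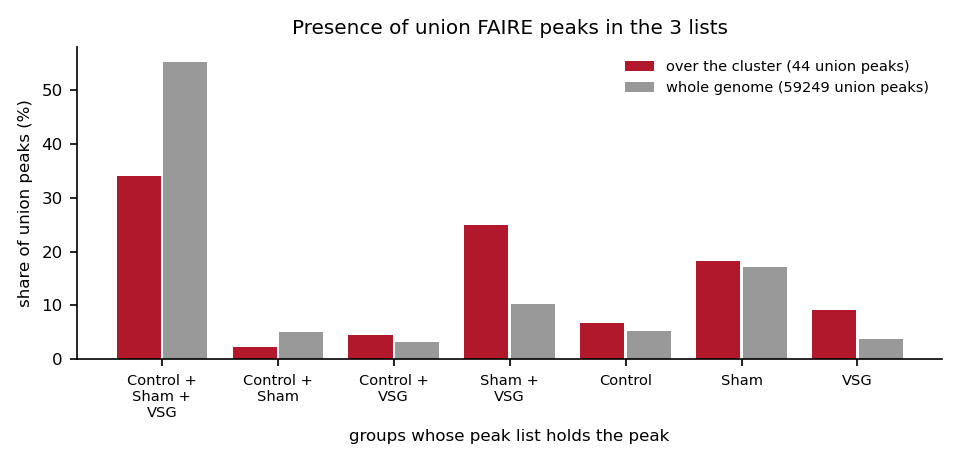
Share of merged FAIRE peaks, in percent, by the groups whose list holds them, over the cluster (red, 44 peaks) and over the genome (grey, 59249 peaks). The cluster has fewer peaks in all 3 lists, 34.1% against 55.2%, and more in Sham and VSG without Control, 25% against 10.3%.

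Most of the gene starts here lay outside peaks, as did most gene starts of the genome. Genome-wide, peaks covered 29.1% of gene starts in Control, 29.4% in Sham and 29.9% in VSG. Of the 7 starts, Control peaks covered those of Cyp2b10 and Cyp2a22, Sham peaks those of Cyp2a12 and Cyp2a22, and VSG peaks that of Cyp2a22. Cyp2b9, Cyp2b13 and Cyp2a4 had 0 peaks within 5 kb of the start in any list, including VSG, in which Cyp2b9 RNA was highest. The nearest peak was 27755 bases from the start of Cyp2b9 and 27200 from that of Cyp2b13. FAIRE reads were 100 bases long and kept where they mapped to 1 place. Of the 100-base stretches within 500 bases of a start, 28.7% recurred in the cluster for Cyp2b9 and for Cyp2b13, 20.4% for Cyp2a4 and for Cyp2a5, 5.65% for Cyp2a12 and for Cyp2a22, and 0 for Cyp2b10, and how many peaks were missed for that reason was not tested.

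At Cyp2b10 (chr7:26682639-26711643, plus strand), the peak over the start was in Control alone. It lay at chr7:26682461-26682674, with a signal of 0.208 at percentile 36.9 of its list, and it covered the start of the gene whose RNA was high in Control alone. It stayed in Control alone with lists of equal size, but was in no list among the stronger 50% or among peaks of at least 250 bases. The part of it before the start, chr7:26682461-26682638, is shown as the one promoter stretch in the cluster with a peak in Control but not in Sham or VSG.
Cyp2b10 start: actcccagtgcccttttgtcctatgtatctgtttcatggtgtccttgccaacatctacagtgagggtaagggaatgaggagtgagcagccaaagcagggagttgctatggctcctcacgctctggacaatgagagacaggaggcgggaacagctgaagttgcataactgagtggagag

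Upstream of Cyp2b10, 3 more peaks were in all 3 lists, and their signals did not follow the RNA. The nearest of them, chr7:26680213-26680543, had its centre 2261 bases before the start. Its signal was 0.417 (percentile 76.5) in Control, 1.12 (percentile 93.7) in Sham and 0.617 (percentile 81.6) in VSG, and the Sham value was the highest of any peak in the cluster. A further peak at chr7:26678202-26678564 was at percentiles 65.6, 48.4 and 73.4, and one at chr7:26674669-26674895 at percentiles 1.03, 46.0 and 23.2. The scale of signal between lists was not stated, so percentiles within a list are given. The nearest peak stayed in all 3 lists among the stronger 50% and with lists of equal size, and was in Sham and VSG alone among peaks of at least 250 bases. In all 3 groups a peak was thus called over this upstream element, whether Cyp2b10 RNA was high or near 0.

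This peak held the letters of NR1, the CAR-binding site of the phenobarbital-responsive enhancer module known in mouse Cyp2b10. The site was searched as AGGTCANNNNAGTACA, a direct repeat with a spacer of 4 bases, on both strands, so that it reads TGTACTNNNNTGACCT on the strand of the gene. Because NR1 was already known in Cyp2b10, its match here was fixed in advance, and the counts below are no test of enrichment. The site lay 2298 to 2283 bases before the start. In windows of 300 bases at peak centres, the letters were in 8 of 59249 merged peaks of the genome (0.0135%), in 1 of the 44 of the cluster, and in 2 of 32851 promoters (0.00609%), none of them of the 7 genes. A looser form, AGGTCANNNNAGNNCA, which contains the first, was in 202 peaks (0.341%) and 53 promoters (0.161%), and within 5 kb before the 7 starts its only match was again this site. The 200 bases around it, chr7:26680261-26680460 in mm9 on the plus strand, are shown with the site in capitals.
Cyp2b10 upstream: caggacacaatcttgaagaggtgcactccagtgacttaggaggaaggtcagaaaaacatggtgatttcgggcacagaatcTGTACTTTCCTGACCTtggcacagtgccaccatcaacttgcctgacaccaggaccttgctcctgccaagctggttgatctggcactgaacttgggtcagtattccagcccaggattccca

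Cyp2b9 and Cyp2b13 carry diverged copies of this upstream element, closer to their starts and with no peak. The best local alignment of the Cyp2b10 peak lay 971 to 665 bases before the start of Cyp2b9 (222 of 300 aligned bases the same, 74.0%) and 957 to 691 bases before that of Cyp2b13 (194 of 261, 74.3%). The bases aligned to NR1 were 840 to 825 and 826 to 811 bases before the starts. Counted from 1 at the first base of the Cyp2b10 site on the plus strand, both copies had the substitutions T1A and C14T. No peak of any list overlapped either copy. Each site is shown in capitals with 10 bases on each side, at chr7:26680331-26680366 for Cyp2b10, chr7:26957580-26957615 for Cyp2b9 and chr7:26845678-26845713 for Cyp2b13, all in mm9 on the plus strand, to set the copies beside each other.
Cyp2b10 site: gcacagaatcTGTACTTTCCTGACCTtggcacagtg
Cyp2b9 copy: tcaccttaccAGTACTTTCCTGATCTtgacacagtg
Cyp2b13 copy: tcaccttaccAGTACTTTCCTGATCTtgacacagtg

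The 36 bases were the same in Cyp2b9 and Cyp2b13, while their listed RNA levels in VSG mice differed. Cyp2b9 was at 17.9 and 103 FPKM and Cyp2b13 was listed at 0, which can be a failed estimate. A match of letters is a description and does not show that a protein was bound. The palindrome TTCNNNGAA, the core of a STAT site, was in 0 of the 7 promoters, in 2 of the 44 cluster peaks (4.55%), in 8.39% of merged peaks and in 8.30% of promoters. CAAAGTCCA, a form of the HNF4 site, was in 0 of the 7 promoters and 0 of the 44 peaks, against 1.70% of merged peaks and 0.475% of promoters.

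At Cyp2a5 and Cyp2a4, peaks lay beside the genes or across a 3′ end and not over their starts. Cyp2a5 (chr7:27620324-27628567, plus strand) had a peak at chr7:27617816-27618049, 2275 bases from the start at its near edge, in Sham (signal 0.246, percentile 19.1) and VSG (0.196, percentile 21.1) but not in Control, where Cyp2a5 RNA was higher than in Sham. With lists of equal size this peak was in VSG alone, and among the stronger 50% of each list or peaks of at least 250 bases it was in no list. Past its 3′ end, a peak centred 8896 bases from the start was in Sham and VSG. Another, across the 3′ end and centred 8288 bases from the start, was in Sham. The first of these was in VSG alone with lists of equal size, and neither was among the stronger 50%. Cyp2a4 (chr7:27092209-27100107, plus strand) had a peak at a matching place, 8873 bases from the start, also in Sham (signal 0.449, percentile 56.4) and VSG (0.420, percentile 67.3) and not in Control, which held with lists of equal size and among the stronger 50%, but it was in no list of peaks of at least 250 bases. The upstream Cyp2a5 peak had a copy 2532 to 2303 bases before the start of Cyp2a4. This copy was the same at 228 of 230 bases (99.1%), and no list had a peak there. Of the 131 stretches of 100 bases in this copy, 0 recurred exactly in the cluster. That count leaves out near-identical stretches, so whether reads from this copy were lost in mapping was not tested.

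The starts of Cyp2a22 and Cyp2a12 differed in their peaks although both genes were expressed in all mice. Cyp2a22 (chr7:27716650-27724405, minus strand) had a peak over its start in all 3 lists, at percentiles 14.2 in Control, 52.9 in Sham and 40.8 in VSG, of which the stronger 50% kept Sham alone. Cyp2a12 (chr7:27814109-27821826, plus strand), the more abundant of the pair, had a peak over its start in Sham alone (percentile 31.8) and one centred 2276 bases upstream in VSG alone (percentile 33.7), neither of them among the stronger 50%. Cyp2a12 RNA overlapped between Sham and Control, so its level did not separate these groups, of which Sham alone had the peak over the start. Beyond the pair, Cyp2f2 had its start covered in Sham and VSG and not in Control, the group in which its RNA was highest.

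**Figure D5:**
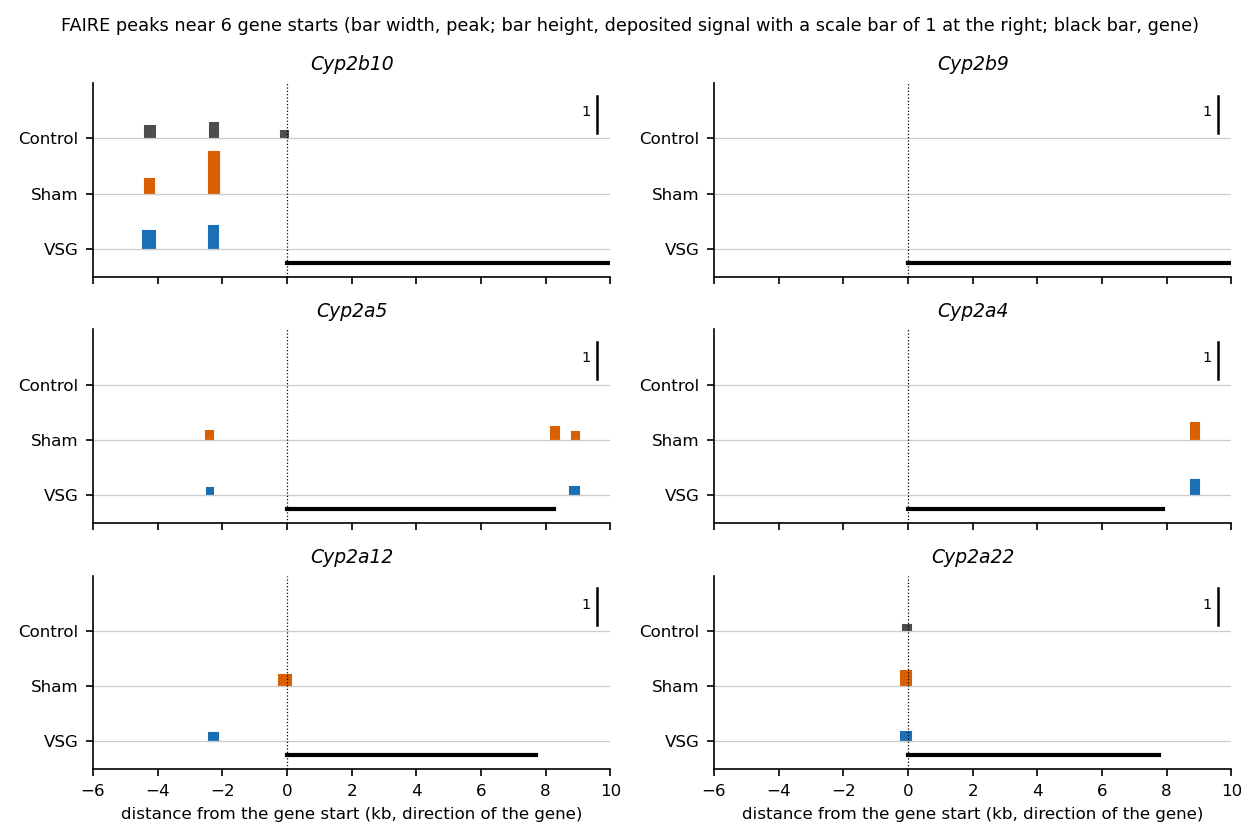
FAIRE peaks of each group from 6 kb before to 10 kb after 6 gene starts, in kb from the start in the direction of the gene, with bar height for the deposited signal (scale bar, a signal of 1) and a black bar for the gene. The peak over the Cyp2b10 start is in Control alone while the peak centred 2261 bases before it is in all 3 groups and highest in Sham, Cyp2b9 has no peak, and Cyp2a4 and Cyp2a5 have peaks in Sham and VSG alone.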

How the data were processed

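RNA FPKM values were deposited by the authors, who, per the study's methods, aligned 50-base reads to mm9 with TopHat2 and estimated FPKM with Cufflinks. The labels name poly(A) selection and the paper depletion of ribosomal RNA. FAIRE peaks and their signal values were deposited as 1 list per group, made by the authors with Bowtie, F-seq and a reproducibility filter over the 2 mice. Versions and the hour of liver collection are not given in the sources used here. Tables of the authors' DESeq comparisons (fold changes and p-values) were not used.

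Transcripts with FPKM of at least 1 in at least 2 of 6 mice were fitted on log2(FPKM + 1) with limma 3.58.1 (R 4.3.3, trended variance, all 3 groups) and Benjamini-Hochberg adjustment at an FDR of 10%. The fit was tested on simulated data. FPKM keep no counts, and depth was estimated from the lowest values in units of 1e6 reads as 17.4 to 40.3. An exact permutation test of 2 against 2 mice cannot go below p = 0.333, and nothing says whether other factors differed between the mice. Peaks were merged over groups where they overlapped. Sequences came from NCBIM37 with GENCODE vM1 and from RefSeq promoters (GRCm38.p6; all 7 genes matched), with Python 3.11.15, Biopython 1.88 and matplotlib 3.10.9. Transcripts were aligned globally and peak copies locally.

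All 7 genes and all cluster neighbours were named. In other lists the named genes were those past an FDR of 10% and the up to 4 with the highest mean FPKM, and for each of the 7 genes the 3 most alike. Genes outside that rule were chosen after their values were seen. The genes and lists were chosen with earlier results of these data known. Alternatives were other pseudocounts, no filter, median-ratio scaling, leaving out each mouse, the replicate number as a block, sums per gene, 2-group fits, and other peak limits.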

Additional observations from a re-analysis of the deposited data

How the results depend on the processing

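The counts of transcripts called rest on 2 mice a group and moved with most settings. For Sham against Control the 40 calls became 65 with a pseudocount of 0.1, 109 without the filter and 22 in a fit of these 2 groups. For VSG against Sham the 9 calls became 19, 31 and 0, with 5 for FPKM summed per gene. For VSG against Control the 25 calls became 49, 86 and 54. Leaving out 1 mouse gave 0 to 221, 0 to 110 and 0 to 44 calls, with 221, 110 and 44 without Sham mouse 2. With the replicate number as a block, the calls were 12, 0 and 9. Mice with the same number correlated at 0.115, 0.0862 and 0.115 in their deviations, so a shared number is not shown to pair them. The number of the 7 genes at least 2-fold apart was 3 to 4, 1 to 4 and 2 to 4 when 1 mouse was left out, and 2 in VSG against Sham with a pseudocount of 0.1. In VSG against Control, Cyp2a4 and Cyp2a5 entered that count as higher without VSG mouse 1 and as lower without VSG mouse 2. The genes separated with all 6 mice kept their sign in every alternative run. Over the cluster, Control, Sham and VSG held 7, 12 and 10 peaks among the stronger 50% of each list, with 6 in all 3 and 3 in Sham and VSG only. Peaks of at least 250 bases numbered 11, 22 and 15, with 5 in all 3. With lists of equal size, the peaks in Sham and VSG only were 7. The 2-fold counts of the lists were not run without single mice.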

Other observations

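Further gene groups bore on the Cyp2 levels only as context. Of 9 Nrf2 and oxidative stress genes, 0 of 10 transcripts passed an adjusted p under 0.1 in limma, and at an unadjusted p under 0.05 it counted 0 higher and 0 lower, 1 higher and 2 lower, and 1 higher and 3 lower for Sham against Control, VSG against Sham and VSG against Control. Of all 11511 transcripts, 5.73% and 4.49%, 3.4% and 1.56%, and 5.7% and 2.62% were higher and lower by that measure. Of the metallothioneins Mt1 and Mt2, which bind zinc and copper, Mt1 was at 4506 and 5629 FPKM in Control, 2826 and 3221 FPKM in Sham and 870 and 555 FPKM in VSG. Gclc, an enzyme of glutathione synthesis, was at 41.1 and 45.7, 14.3 and 37.9, and 47.4 and 117 FPKM.

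Of 14 clock output genes, 12 passed the filter and 0 of 13 transcripts passed an adjusted p under 0.1. At an unadjusted p under 0.05 there were 1 higher and 1 lower, 0 higher and 1 lower, and 2 higher and 0 lower, beside the same shares of all transcripts (5.73% and 4.49%, 3.4% and 1.56%, 5.7% and 2.62%). Dbp, a clock-driven activator, was at 27.3 and 16.9 FPKM in Control, 40.4 and 17.1 FPKM in Sham and 48.2 and 68.8 FPKM in VSG. Nr1d1 was at 7.88 and 6.84 FPKM in Control, 19.0 and 15.6 FPKM in Sham and 63.3 and 22.1 FPKM in VSG, with no overlap of the groups, the order that Cyp2b9 also had. The part of the hour of collection was not tested. Among 7 liver transcription factors that passed the filter, Cebpa lay between 103 and 145 FPKM in the 6 mice, while Hnf4a was listed at 0 in Sham mouse 1 and reached 73.3 FPKM in Sham mouse 2, so that its value in the table carries doubt.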
